A study of Mus musculus with 6 samples.

Results

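The 6 genes described here were Brd2, Brd3, Hexim1, Cdk9, Ccnt1 and Myc, taken by symbol from the 54752 gene identifiers of a mouse RNA-seq count table. They were chosen because BI6727 (PLK1 inhibitor, volasertib) can also bind BET bromodomains, and the question was whether the treated cells carried a transcript sign of this such as raised Hexim1. Earlier results of these data were known when the genes and lists were chosen. All 6 matched a row of the table and all 6 passed the filter on low counts, so each was tested.

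RNA was measured in NIH/3T3 cells, an immortalised line of mouse embryonic fibroblasts, in 3 groups of 2 replicates. The vehicle group received PBS for 72 h. The DMSO group received TGF-β1 at 1 ng/ml together with DMSO for 72 h. The BI6727 group received TGF-β1 at 1 ng/ml together with BI6727 at 5 μM for 72 h. The DMSO group differed from vehicle by DMSO as well as by TGF-β1, so these effects cannot be told apart. The labels do not say whether the BI6727 group also received DMSO. If it did not, BI6727 against DMSO differs by DMSO as well, and these effects cannot be told apart either. No library analysed here had BI6727 without TGF-β1, DMSO alone, or a dedicated BET inhibitor. The labels do not say whether replicates were separate cultures, so the p-values measure the spread between these libraries, which may be technical.

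BET proteins, among them Brd2, Brd3 and the testis protein Brdt, are readers of acetylated histones, and they help to bring P-TEFb to promoters. P-TEFb is the kinase Cdk9 bound to a T-type cyclin such as Ccnt1, and it phosphorylates RNA polymerase II and the pausing factors so that paused polymerase moves into elongation. A large share of P-TEFb is held inactive by Hexim1 on the 7SK small nuclear RNA, and in many cell types dedicated BET inhibitors raise HEXIM1 mRNA and often lower MYC mRNA.

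Library totals ranged from 18362378 to 24452153 counts. Levels are given as normalized CPM, counts scaled to a common library size by edgeR's TMM method. Levels of different genes are compared only as RPKM, which also divides by exonic length. A gene is said to have risen or fallen only at a Benjamini-Hochberg adjusted p below 0.01 and a fold change above 2 in edgeR's quasi-likelihood test over 9518 genes. The 8 fibroblast markers summed to between 7879 and 10449 CPM, and 9 markers of epithelium, endothelium, leukocytes, muscle and liver summed to between 5.30 and 8.64 CPM, with Myod1 at 0 in every library. Single fibroblast markers moved. Of the 8, 1 fell between vehicle and the DMSO group, where 5.10% of all genes were called in either direction. Between vehicle and BI6727 2 fell, where 5.31% were called. The median log2 fold change over the list was -0.19 for DMSO against vehicle, -0.82 for BI6727 against vehicle and -0.30 for BI6727 against DMSO. The part of these markers in the results was not tested. In bulk RNA, fewer cells of a kind and less RNA per cell cannot be told apart. The DMSO replicates differed more from each other (SD of the log2 difference over genes 0.377) than the vehicle replicates (0.163) or the BI6727 replicates (0.147). DMSO replicate 2 gave higher values than DMSO replicate 1 for short genes and lower values for long genes, with a median log2 difference from 0.34 in the shortest to -0.37 in the longest of 5 equal classes of genes by length. The values of BI6727 against each DMSO library are given beside some of the results. Those of fits without DMSO replicate 2 or with offsets for gene length are given beside some of the results they changed, not all.

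Hexim1 (ENSMUSG00000048878.6, chr11:103116230-103119720 in mm10, plus strand) encodes the protein that inhibits P-TEFb within the 7SK particle. The stretch directly upstream of its start in the count table is shown because Hexim1 was the transcript the question turned on. It was read from RefSeq sequence of GRCm38.p6, the build also named mm10, at chr11:103116075-103116229, plus strand, 155 bases. Capitals mark every match on either strand to TATAAA or to TATATA, which are forms of the TATA box, to the E-box CACGTG, to the CCAAT box, or to the GC box, written GGGCGG.
Hexim1 upstream: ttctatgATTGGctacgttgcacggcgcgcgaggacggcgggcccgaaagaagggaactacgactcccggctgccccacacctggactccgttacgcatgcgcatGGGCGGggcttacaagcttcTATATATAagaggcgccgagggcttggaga
The stretch held 1 CCAAT box on the opposite strand, 1 GC box, and 2 overlapping copies of TATATA that lay 30 to 23 bases before the gene start of the count table, which is 125 to 118 bases before the start in RefSeq. Among 32851 promoter windows of 300 bases around RefSeq starts, longer than the stretch shown, 5.67% held TATATA, 13.6% held TATAAA, 37.4% held the CCAAT box and 35.7% held the GC box. The E-box, to which MYC and its partner MAX bind, was in 7.15% of windows and in none of those of the 5 members with an entry.

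Hexim1 stood at 107.7 and 88.5 CPM in the vehicle libraries (98.1 ± 13.6, SD, n = 2). In the DMSO libraries it stood at 74.8 and 67.5 CPM (71.2 ± 5.15, n = 2), and in the BI6727 libraries at 95.6 and 87.3 CPM (91.4 ± 5.84, n = 2). Both DMSO libraries lay below all 4 others, and the BI6727 libraries lay within or just under the range of the vehicle libraries. Against vehicle, the log2 fold change in the DMSO group was -0.46 (95% interval -0.76 to -0.17, adjusted p = 0.0372 by edgeR with Benjamini-Hochberg adjustment), which did not pass the threshold. BI6727 against DMSO gave a log2 fold change of 0.36 (SE 0.13, interval 0.06 to 0.66), or 1.28-fold, with an adjusted p of 0.692. This interval lies below the 2-fold limit that a call required. Only 218 of the 9518 genes tested, or 2.29%, had a larger log2 fold change in this comparison. BI6727 against vehicle gave a log2 fold change of -0.10 (interval -0.40 to 0.19, adjusted p = 0.594), with overlapping groups. The first 2 comparisons share the DMSO libraries and so are not independent. The BI6727 mean exceeded DMSO replicate 1 by 0.29 and DMSO replicate 2 by 0.44 on the log2 scale. A fit with offsets for gene length gave a difference from DMSO of 0.37 (adjusted p = 0.308 by edgeR's test). Over 15 alternatives the difference ran from 0.28 to 0.44.

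**Figure D1:**
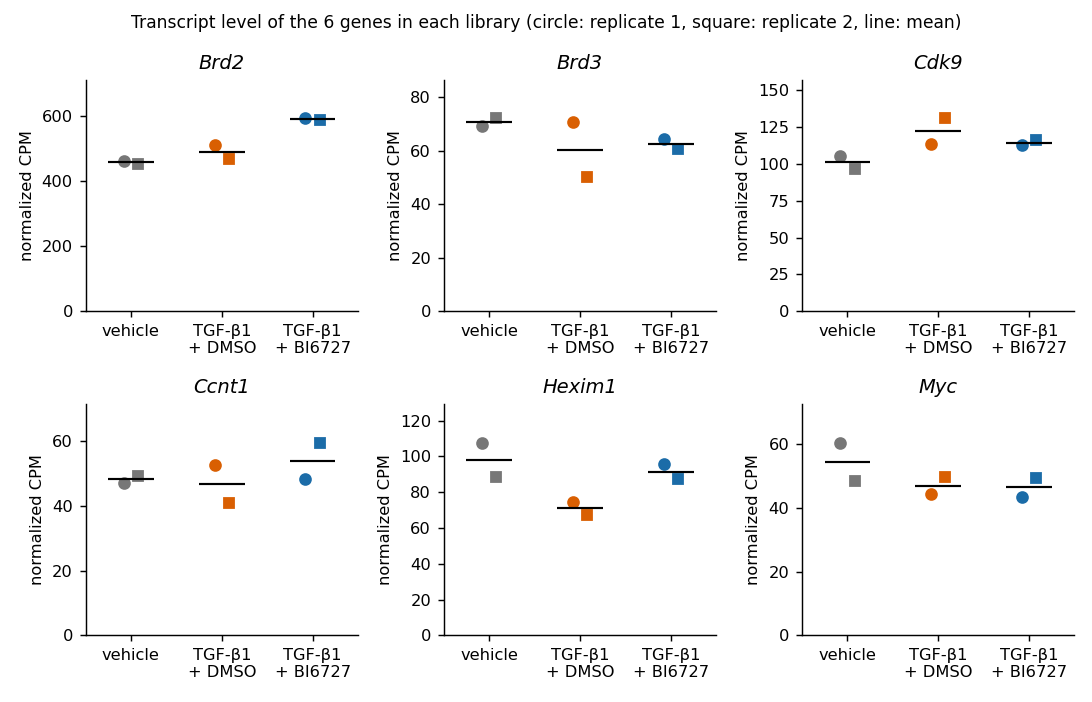
Normalized CPM of the 6 members in each library, 1 panel a gene, with a circle for replicate 1, a square for replicate 2 and a line at each group mean. The DMSO points of Hexim1 (74.8 and 67.5) sit below all other Hexim1 points, and the BI6727 points of Brd2 (593 and 589) sit above all other Brd2 points.

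Brd2 (ENSMUSG00000024335.19, chr17:34112023-34122634 in mm10, minus strand) encodes a widely expressed BET protein. Its upstream stretch is shown beside that of Hexim1 because Brd2 was the other member with a BI6727 group that did not overlap the DMSO group. It was read from RefSeq sequence of GRCm38.p6 at chr17:34122635-34122857, minus strand, 223 bases, written in the direction of transcription.
Brd2 upstream: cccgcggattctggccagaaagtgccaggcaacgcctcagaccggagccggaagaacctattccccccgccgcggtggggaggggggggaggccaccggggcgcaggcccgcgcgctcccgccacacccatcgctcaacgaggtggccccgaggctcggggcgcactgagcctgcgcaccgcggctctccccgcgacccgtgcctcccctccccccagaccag
None of the 5 motifs was found in this stretch, so it has no capitals. RefSeq gives 2 further starts of Brd2 within the gene, at 34119900 and 34121747, and both of their windows held the GC box. Its G and C content was 75.3%, against 60.6% in the Hexim1 stretch.

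Brd2 stood at 461 and 454 CPM in vehicle (457 ± 4.61, n = 2), at 512 and 469 CPM in the DMSO group (491 ± 29.97, n = 2), and at 593 and 589 CPM in the BI6727 group (591 ± 3.40, n = 2). The 3 groups did not overlap, and the BI6727 libraries were the highest. The log2 fold change was 0.10 for DMSO against vehicle (interval -0.13 to 0.33, adjusted p = 0.473), 0.27 for BI6727 against DMSO (SE 0.097, interval 0.04 to 0.50, adjusted p = 0.701) and 0.37 for BI6727 against vehicle (interval 0.14 to 0.60, adjusted p = 0.0319), by the same edgeR test. None of these passed the threshold. The BI6727 mean exceeded DMSO replicate 1 by 0.21 and DMSO replicate 2 by 0.33 on the log2 scale. Of the genes tested, 6.18% had a larger log2 fold change between BI6727 and DMSO. In the Gencode M21 transcripts, 7.81% of the 50-base windows of Brd2 were also found in other genes, so a small share of its reads could be split between them.

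Brd3 (ENSMUSG00000026918.16, chr2:27445579-27507662, minus strand), a second BET protein, had 69.3 and 72.1 CPM in vehicle (70.7 ± 2.02, n = 2), 70.7 and 50.1 CPM in the DMSO group (60.4 ± 14.6, n = 2), and 64.5 and 60.6 CPM in the BI6727 group (62.5 ± 2.76, n = 2). The spread lay mostly in the DMSO group, where replicate 2 was 0.50 lower than replicate 1 on the log2 scale. The log2 fold change of BI6727 against DMSO was 0.05 (interval -0.33 to 0.43, adjusted p = 0.961), and its sign depended on the DMSO library, at -0.18 against replicate 1 and 0.32 against replicate 2. Against vehicle it was -0.23 in the DMSO group (adjusted p = 0.339) and -0.18 in the BI6727 group (adjusted p = 0.468), by edgeR with Benjamini-Hochberg adjustment.

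Brdt, the testis member of the family, was under the filter on low counts and was not tested, at 6.996 to 11.5 CPM over the 6 libraries.

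Cdk9 (ENSMUSG00000009555.16, chr2:32705784-32713076, minus strand), the kinase of P-TEFb, had 105.6 and 96.7 CPM in vehicle (101.1 ± 6.27, n = 2), 113.3 and 131.1 CPM in the DMSO group (122.2 ± 12.6, n = 2), and 112.9 and 116.2 CPM in the BI6727 group (114.6 ± 2.35, n = 2). Both TGF-β1 groups lay above vehicle and overlapped each other. The log2 fold change was 0.27 for DMSO against vehicle (interval 0.02 to 0.53, adjusted p = 0.109) and -0.09 for BI6727 against DMSO (interval -0.34 to 0.16, adjusted p = 0.886). Small RNA genes on the same strand overlapped 3.36% of its exonic length.

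Ccnt1 (ENSMUSG00000011960.12, chr15:98538689-98570923, minus strand), its cyclin partner, had 47.0 and 49.4 CPM in vehicle (48.2 ± 1.68, n = 2), 52.5 and 40.8 CPM in the DMSO group (46.6 ± 8.28, n = 2), and 48.4 and 59.5 CPM in the BI6727 group (54.0 ± 7.87, n = 2). The 3 groups overlapped pairwise. BI6727 against DMSO gave a log2 fold change of 0.21 (interval -0.16 to 0.59, adjusted p = 0.838 by edgeR's test), with 0.03 against DMSO replicate 1 and 0.40 against replicate 2. A gene on the opposite strand covered 7.59% of the exonic length of Ccnt1. The strand setting of the counting was not given in the sources used here, so reads of these genes may not be told apart. Ccnt2, the other T-type cyclin, had 30.6 to 44.3 CPM over the 6 libraries, with overlapping groups. Its log2 fold change for BI6727 against DMSO was 0.08 (interval -0.34 to 0.50). This value was -0.038 with offsets for gene length and -0.11 without DMSO replicate 2.

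The 7SK particle holds P-TEFb through Hexim1 or its relative Hexim2, with Larp7 and Mepce bound to the RNA itself. Mepce, the enzyme that caps 7SK, had 65.5 and 74.9 CPM in vehicle, 84.2 and 77.5 CPM in the DMSO group, and 88.2 and 85.8 CPM in the BI6727 group. Its BI6727 libraries lay above the DMSO libraries, with a log2 fold change of 0.11 (interval -0.15 to 0.36). Larp7, which stabilises 7SK, had 58.6 to 74.9 CPM, with a log2 fold change of 0.04 for BI6727 against DMSO (interval -0.21 to 0.30). Hexim2 was under the filter on low counts, at 9.45 and 10.1 CPM in vehicle, 6.42 and 5.20 CPM in the DMSO group, and 4.01 and 3.97 CPM in the BI6727 group. These 3 groups did not overlap, and their order was the reverse of that of Brd2. With the looser filterByExpr filter, Hexim2 fell between vehicle and BI6727 (log2 fold change -1.28, adjusted p = 0.00331) but did not pass between DMSO and BI6727 (-0.53, adjusted p = 0.667), by edgeR with Benjamini-Hochberg adjustment. The 7SK RNA gene Rn7sk stood at 1.04 to 4.56 CPM, and 68.1% of its 50-base windows occurred in other genes, so its values are uncertain. Of the 3 genes of the particle tested, 0 passed the threshold in any comparison.

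On the per-length scale, Brd2 was the most abundant of the 6 transcripts in every group, at 62.8 ± 0.632 RPKM in vehicle, 67.3 ± 4.11 in the DMSO group and 81.1 ± 0.467 in the BI6727 group (n = 2 each). Brd3 and Ccnt1 were the least abundant, in that order, with group means of 8.23 to 9.64 RPKM for Brd3 and 5.09 to 5.89 RPKM for Ccnt1. The order of the other 3 depended on the group. In vehicle, Hexim1 (28.1 ± 3.88 RPKM) lay above Cdk9 (21.9 ± 1.36) and Myc (20.1 ± 3.11), and the last 2 overlapped. In the DMSO group, Cdk9 (26.5 ± 2.73 RPKM) lay above Hexim1 (20.4 ± 1.47), which lay above Myc (17.3 ± 1.36). In the BI6727 group, Hexim1 (26.2 ± 1.67 RPKM) and Cdk9 (24.9 ± 0.509) overlapped, and Myc was lower (17.1 ± 1.57). The ratio of Hexim1 to Cdk9, the inhibitor against its kinase, was 1.35 and 1.21 in vehicle, 0.871 and 0.679 in the DMSO group, and 1.12 and 0.991 in the BI6727 group, computed from RPKM in each library. The 3 groups did not overlap in this ratio, which was formed after the values were seen and was not tested. The ratio of Hexim1 to Ccnt1, the cyclin of P-TEFb, did not set the BI6727 group apart. Its BI6727 values of 5.17 and 3.84 overlapped the DMSO values of 3.73 and 4.34. They also overlapped the vehicle values, the lower of which was 4.70. The ratio to Ccnt1 was not tested either.

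**Figure D2:**
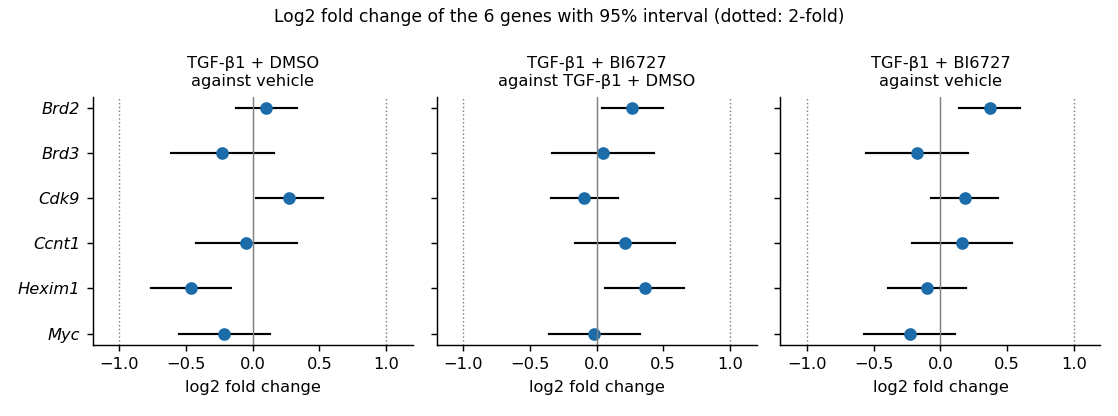
Log2 fold changes of the 6 members in the 3 comparisons, with points for the edgeR estimates and bars for 95% intervals, and dotted lines at the 2-fold limits. Every interval lies inside the 2-fold limits, and between BI6727 and DMSO the intervals of Hexim1 (0.06 to 0.66) and Brd2 (0.04 to 0.50) lie above 0.

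Myc (ENSMUSG00000022346.15, chr15:61985391-61990374, plus strand) encodes a transcription factor that drives ribosome production and growth, and its mRNA turns over quickly. It had 60.5 and 48.6 CPM in vehicle (54.5 ± 8.44, n = 2), 44.4 and 49.6 CPM in the DMSO group (47.0 ± 3.69, n = 2), and 43.4 and 49.5 CPM in the BI6727 group (46.5 ± 4.26, n = 2). The groups overlapped in every comparison, and the DMSO and BI6727 values were nearly the same pair. The log2 fold change was -0.21 for DMSO against vehicle (interval -0.55 to 0.13, adjusted p = 0.317), -0.02 for BI6727 against DMSO (interval -0.36 to 0.33, adjusted p = 0.985) and -0.23 for BI6727 against vehicle (interval -0.57 to 0.11, adjusted p = 0.295), by edgeR with Benjamini-Hochberg adjustment. The interval of BI6727 against DMSO allows a Myc level up to 0.36 lower on the log2 scale.

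Over the 6 members, edgeR called 0 in DMSO against vehicle, where 5.10% of all genes tested were called, and 0 in BI6727 against vehicle, where 5.31% were called. Between BI6727 and DMSO it called 0 members, and 0 of all 9518 genes, a percent called of 0. DESeq2 also called 0 members in each comparison. At an unadjusted p below 0.05, 2 members passed in DMSO against vehicle (37.8% of all genes did), 2 in BI6727 against DMSO (6.68% of all genes) and 1 in BI6727 against vehicle (37.7%). The 2 members between BI6727 and DMSO were Hexim1 and Brd2, both higher, against 2.16% of all genes that passed higher. Members whose groups did not overlap numbered 3 in DMSO against vehicle (62.9% of all genes), 2 in BI6727 against DMSO (34.1%) and 3 in BI6727 against vehicle (76.8%). The shares of the members were near or below the background in the comparisons with vehicle, and for groups that did not overlap also in BI6727 against DMSO. With 2 libraries a group, the smallest p that an exact permutation test allows is 0.333, so no such test was run. The median log2 fold change of the members was -0.13, 0.13 and 0.03 in the 3 comparisons in that order, beside medians within 0.01 of 0 over all genes tested.

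Several of these values differed between the DMSO libraries. Between the DMSO replicates, Ccnt1 differed by -0.36, Hexim1 by -0.15 and Brd2 by -0.12, as log2 CPM of replicate 2 minus replicate 1. Cdk9 differed by 0.21 and Myc by 0.16. Hexim1 (3495 bases) is shorter than Cdk9 (4611 bases), and how far these differences followed gene length was not tested. Without DMSO replicate 2, the log2 fold change of BI6727 against DMSO was -0.19 for Brd3. Without DMSO replicate 1 it was 0.44 for Hexim1 and 0.33 for Brd2, under the fold limit. In these fits 1 DMSO library stands alone and is assumed to vary like the other groups.

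**Figure D3:**
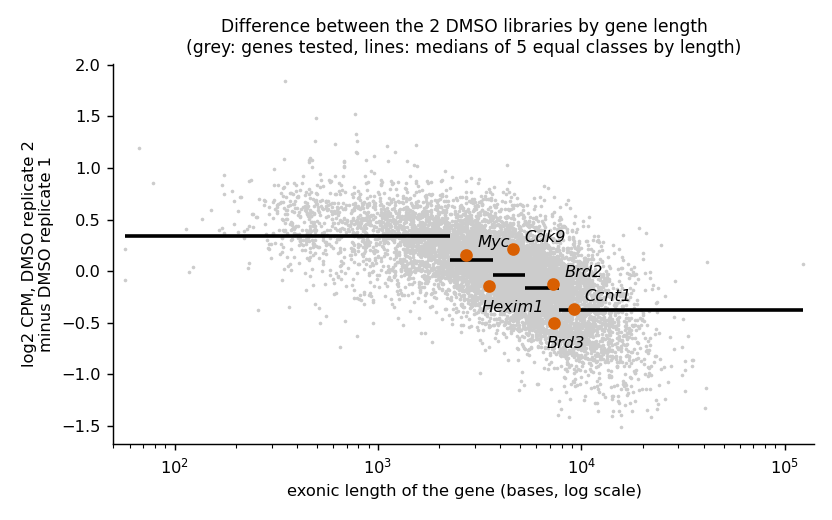
Log2 CPM of DMSO replicate 2 minus DMSO replicate 1 against exonic gene length on a log axis, with grey points for the genes tested, black lines for the median of each of 5 equal classes by length, and orange points for the 6 members. The medians go from 0.34 in the shortest class to -0.37 in the longest, and Brd3 (-0.50) and Ccnt1 (-0.36) are the lowest members.

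Genes known to rise or fall under dedicated BET inhibitors in other cells gave mixed values. Of the raised set, Serpini1, which encodes neuroserpin, had 3.69 and 4.10 CPM in vehicle, 4.83 and 5.30 CPM in the DMSO group, and 8.46 and 7.78 CPM in the BI6727 group. The 3 groups did not overlap, and the BI6727 libraries were the highest. Serpini1 was under the filter on low counts. With filterByExpr its log2 fold change was 0.69 for BI6727 against DMSO (SE 0.20, adjusted p = 0.546), which did not pass, and it rose between vehicle and BI6727 by 1.07 (adjusted p = 0.00734), by edgeR with Benjamini-Hochberg adjustment. Zmynd8, a reader of acetylated histones, had 82.2 to 96.2 CPM in vehicle, 48.0 to 63.3 CPM in the DMSO group and 55.9 to 63.2 CPM in the BI6727 group, with a log2 fold change of 0.10 for BI6727 against DMSO (interval -0.28 to 0.47). Zcchc24 had 63.6 and 65.7 CPM in the BI6727 group, between its DMSO values of 73.1 and 62.4 CPM, with a log2 fold change of -0.07 (interval -0.32 to 0.19). Both lay below their vehicle libraries in every TGF-β1 library. With offsets for gene length the BI6727 against DMSO value of Zmynd8 was -0.0036, and without DMSO replicate 2 it was -0.099. The histone gene Hist2h2be had 1.11 to 2.57 CPM over the 6 libraries, and with filterByExpr its log2 fold change was -0.05 for BI6727 against DMSO (adjusted p = 0.985). Hexim1 was thus the only one of the 3 genes of this set above the filter whose BI6727 libraries lay above its DMSO libraries. Such a separation in that direction was found in 17.0% of all genes tested.

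Of the set lowered by BET inhibitors, Ccl2, which encodes a chemokine that attracts monocytes, had 841 and 791 CPM in vehicle, 319 and 399 CPM in the DMSO group, and 219 and 204 CPM in the BI6727 group. The 3 groups did not overlap. Ccl2 fell between vehicle and the DMSO group by 1.19 on the log2 scale (adjusted p = 0.00105), and its log2 fold change between DMSO and BI6727 was -0.76 (SE 0.13, interval -1.07 to -0.46), with an adjusted p of 0.388 by edgeR's quasi-likelihood test. Ccl2 was also lower in BI6727 than in vehicle (log2 fold change -1.95, adjusted p = 0.000149), a call that held without vehicle replicate 1 (adjusted p = 0.00694) and without vehicle replicate 2 (adjusted p = 0.00509). The call between vehicle and DMSO was lost without vehicle replicate 1 (log2 fold change -1.15, adjusted p = 0.0259) and without vehicle replicate 2 (-1.23, adjusted p = 0.0183). DESeq2 gave the difference between DMSO and BI6727 an adjusted p of 0.000167 and the fit with length offsets gave 0.00652, and over 15 alternatives the difference ranged from -0.91 to -0.60 and the adjusted p from 1.87e-07 to 1.00. Il6, an inflammatory cytokine, had 6.02 and 3.69 CPM in vehicle, 11.0 and 16.1 CPM in the DMSO group, and 7.73 and 8.86 CPM in the BI6727 group. It was also under the filter on low counts. With filterByExpr it rose between vehicle and DMSO (log2 fold change 1.49, adjusted p = 0.00670) and had a log2 fold change of -0.69 between DMSO and BI6727 (adjusted p = 0.655). Fosl1, a subunit of AP-1, had 143 and 163 CPM in the DMSO group and 122 and 138 CPM in the BI6727 group, with a log2 fold change of -0.24 (interval -0.50 to 0.03), and 52.6% of its 50-base windows occurred in 1 other gene. The cell-cycle kinase Cdk6 had 21.7 and 11.9 CPM in the DMSO group and 15.9 and 15.2 CPM in the BI6727 group, and the survival gene Bcl2 had 7.68 to 10.5 CPM over the 6 libraries. The log2 fold change of Cdk6 was -0.12, and it ran from -0.50 to 0.38 over 15 alternatives. Of the 4 genes of this set above the filter, which were Ccl2, Fosl1, Cdk6 and Myc, 4 had a log2 fold change under 0 between BI6727 and DMSO, as did 4815 of all 9518 genes, and the sign of Myc turned in 4 of the alternatives. Of the 4, 2 had groups that did not overlap (17.1% of all genes did in that direction), and the median was -0.18.

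**Figure D4:**
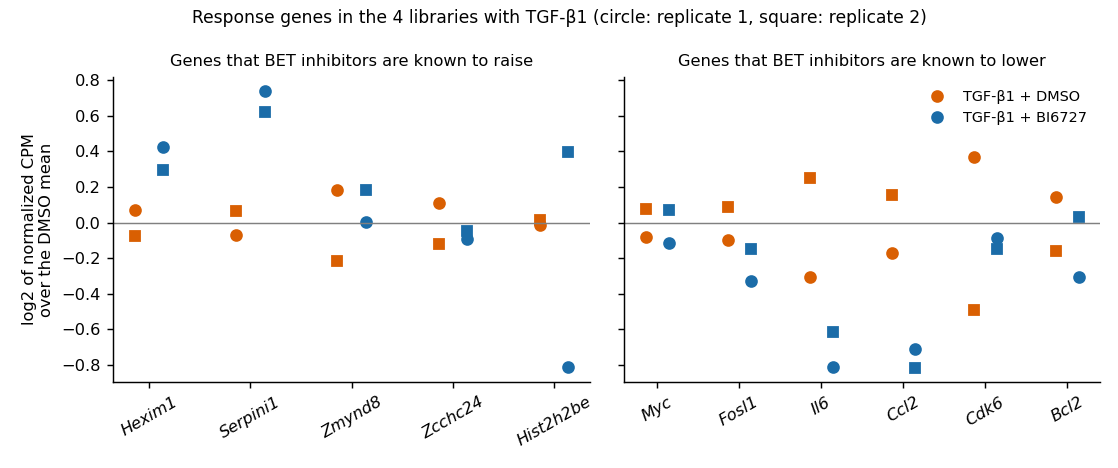
Log2 of the normalized CPM over the mean of the DMSO libraries, for genes that dedicated BET inhibitors are known to raise (left) or lower (right), with circles for replicate 1 and squares for replicate 2 of the DMSO and BI6727 groups. The BI6727 points lie above the DMSO points for Hexim1 and Serpini1 (8.46 and 7.78 CPM against 4.83 and 5.30), below them for Fosl1, Il6 and Ccl2 (219 and 204 CPM against 319 and 399), and overlap them for the other genes.

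The super elongation complex joins P-TEFb to elongation factors. Of its 9 genes, 7 were tested and 0 passed the threshold in any comparison. Between BI6727 and DMSO all 7 had a log2 fold change above 0, as did 4703 of all 9518 genes, and the median of the 7 was 0.15. Of the 7, 4 had groups that did not overlap, beside 17.0% of all genes in that direction. Aff1, Aff4, Ell2 and Mllt3 belong to the longest of the 5 classes of genes by length. The median log2 fold change of all genes in that class was 0.083 in this comparison. The DMSO libraries stood apart on the list of the complex, with medians of 0.46 and -0.27 relative to vehicle. The BI6727 libraries lay between them at 0.16 and 0.35. Aff1 had 67.6 and 37.1 CPM in the DMSO group and 64.2 and 66.4 CPM in the BI6727 group, so that it lay below DMSO replicate 1 and above replicate 2, as did the BI6727 means of Aff4 and Mllt1. The values ran from 0.09 for Ell2 to 0.35 for Mllt3, an acetyl-lysine reader of the complex. Mllt3 had 68.2 and 59.9 CPM in vehicle, 48.7 and 39.1 CPM in the DMSO group, and 58.0 and 53.9 CPM in the BI6727 group, so that its DMSO libraries were the lowest, as with Hexim1. The elongation factor gene Ell2 and its partner Eaf1 had log2 fold changes of 0.67 (adjusted p = 0.00487) and 0.72 (adjusted p = 0.00247) in DMSO against vehicle by edgeR with Benjamini-Hochberg adjustment, both under the fold limit. Eaf1 had 83.7 and 89.7 CPM in vehicle, 149 and 137 CPM in the DMSO group and 156 and 161 CPM in the BI6727 group.

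The 6 genes of the pausing factors DSIF and NELF were all tested and 0 passed. Between BI6727 and DMSO their log2 fold changes ran from -0.22 for Supt4a to 0.23 for Supt5, the 2 subunits of DSIF, with a median of -0.03. Of 9 genes for other kinases of RNA polymerase II and their cyclins, 0 passed. Between BI6727 and DMSO 0 of the 9 had groups that did not overlap, beside 34.1% of all genes. Their values ran from -0.16 for Mnat1, a subunit of the kinase of TFIIH, to 0.18 for Cdk13.

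In the MYC network, 9 of 12 genes were tested and 0 passed. Between BI6727 and DMSO the range was from -0.41 for Mxd3 (interval -0.78 to -0.03) to 0.29 for Mxd4 (interval 0.01 to 0.58), both of which encode partners of MAX that oppose MYC. Mxd4 had 68.6 and 66.1 CPM in vehicle, 44.8 and 37.7 CPM in the DMSO group and 51.3 and 49.8 CPM in the BI6727 group. Mxd3 had 32.2 CPM in both vehicle libraries, 20.8 and 24.1 CPM in the DMSO group and 15.0 and 18.8 CPM in the BI6727 group. The BI6727 libraries of these antagonists thus lay on opposite sides of the DMSO libraries. Mycl, Mycn and Mxd1 were under the filter on low counts. With filterByExpr, their log2 fold changes in DMSO against vehicle were 4.03, -2.87 and -0.89 (adjusted p = 0.0101, 0.0665 and 0.0149 by edgeR). Between BI6727 and DMSO they were -0.59, 1.57 and 0.43 (adjusted p = 0.861, 0.804 and 0.704). None of these passed, and the SE of Mycl and Mycn in DMSO against vehicle was 0.82 and 0.96.

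Genes that MYC activates, mostly of ribosome production, translation and metabolism, numbered 25, all tested, and 0 passed the threshold in any comparison. In DMSO against vehicle 21 of 25 had a log2 fold change above 0, as did 4714 of all 9518 genes, and the median of the 25 was 0.13. In this comparison 13 had groups that did not overlap with DMSO higher (29.8% of all genes did). In BI6727 against DMSO 10 of 25 lay above 0 and 15 below, with a median of -0.02, and 2 genes in each direction had groups that did not overlap, beside 17.0% of all genes higher and 17.1% lower. The range was from -0.39 for Ldha, lactate dehydrogenase A (interval -0.64 to -0.15, adjusted p = 0.583 by edgeR's test), to 0.22 for Ddx21, an RNA helicase of ribosome production. Ldha had 880 and 886 CPM in vehicle, 1053 and 1117 CPM in the DMSO group and 849 and 802 CPM in the BI6727 group, and its BI6727 libraries were the lowest.

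Of 5 genes that MYC represses, 4 were tested and Cdkn2b had no counts in any library. Gadd45a, a stress-induced growth arrest gene, rose between vehicle and the DMSO group by 1.35 on the log2 scale (adjusted p = 0.000598) and between vehicle and the BI6727 group by 1.39 (adjusted p = 0.000482), by edgeR with Benjamini-Hochberg adjustment. It had 20.1 and 18.9 CPM in vehicle, 45.3 and 54.0 CPM in the DMSO group, and 50.7 and 51.2 CPM in the BI6727 group. Both calls were lost without either vehicle replicate, with log2 fold changes of 1.30 to 1.42 and adjusted p-values of 0.0154 to 0.0185 in edgeR. An opposite-strand gene covered 19.1% of its exonic length, so its values are uncertain. Cdkn1a had log2 fold changes of 0.86 in DMSO against vehicle (adjusted p = 0.00294) and 0.85 in BI6727 against vehicle (adjusted p = 0.00277) by edgeR, both under the fold limit. An opposite-strand gene covered 7.68% of its exonic length. Cdkn1b went the other way, at -0.31 and -0.39 in these comparisons, and did not pass. Between BI6727 and DMSO 0 of the 4 passed, and the range was from -0.19 for Ndrg1 to 0.04 for Gadd45a.

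**Figure D5:**
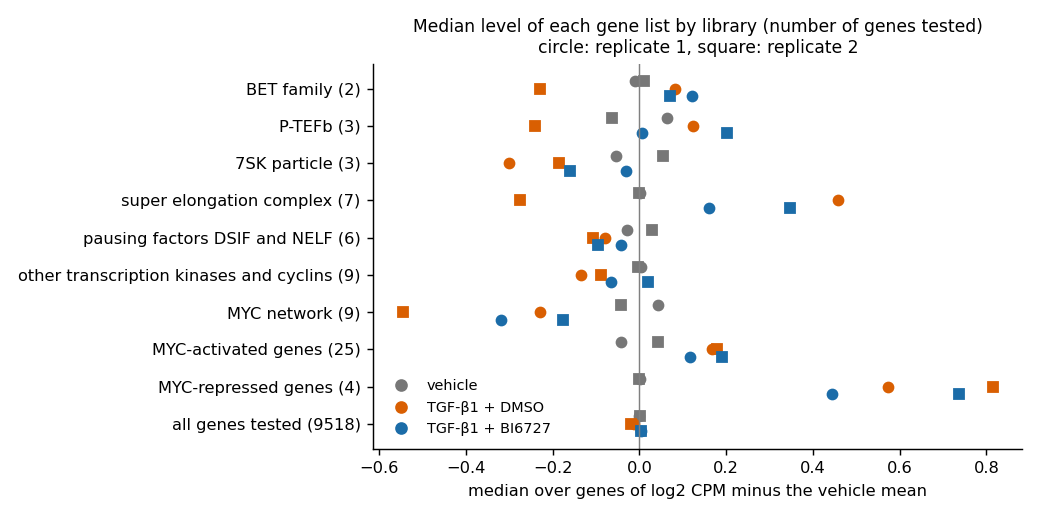
Median over the tested genes of each list of the log2 CPM minus the mean of the vehicle libraries, 1 row a list with its number of genes tested, and points for the 6 libraries (circles for replicate 1, squares for replicate 2). For the MYC-activated genes the DMSO libraries lie at 0.17 and 0.18 and the BI6727 libraries at 0.12 and 0.19, and for the super elongation complex DMSO replicate 2 (-0.27) lies apart from DMSO replicate 1 (0.46).

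Over all these lists and the members, 7 of the 73 genes tested (9.59%, beside 6.68% of all genes) were under an unadjusted p of 0.05 between BI6727 and DMSO, namely Hexim1, Brd2, Mllt3 and Mxd4, which were higher, and Mxd3, Ldha and Ccl2, which were lower. DESeq2 called 0 of them. The numbers were 30 in DMSO against vehicle and 28 in BI6727 against vehicle, or 41.1% and 38.4%, beside 37.8% and 37.7% of all genes.

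The target of the inhibitor and a myofibroblast marker were read in the same libraries. Plk1 itself had 98.7 and 105 CPM in vehicle, 71.6 and 70.5 CPM in the DMSO group, and 60.2 and 63.4 CPM in the BI6727 group, with a log2 fold change of -0.20 for BI6727 against DMSO (interval -0.43 to 0.02). Acta2, which encodes α-SMA, rose between vehicle and the DMSO group by 2.30 on the log2 scale (adjusted p = 2.71e-05 by edgeR's quasi-likelihood test), and its log2 fold change was -0.50 for BI6727 against DMSO (interval -0.72 to -0.27, adjusted p = 0.468). The difference for Acta2 was thus larger in size than those of Hexim1 and Brd2 and also did not pass.

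The genes whose pattern over the 6 libraries was most like that of Hexim1, by Pearson's r of log2 CPM among 7104 protein-coding genes of comparable spread, were Naglu (r = 0.989), Kctd18 (0.979) and Mat2a (0.974). Naglu had 54.8 and 43.6 CPM in vehicle, 38.4 and 33.6 CPM in the DMSO group, and 46.9 and 41.9 CPM in the BI6727 group. For Myc they were Pnrc1 (0.966), Srsf5 (0.957) and Cept1 (0.956) among 8189 genes. These are descriptions over 6 libraries that share their groups, and the highest of so many values are high by selection.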

How the data were processed

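Ribosome-depleted RNA of 6 NIH/3T3 libraries was sequenced as single-end 50-base reads. The authors mapped the reads to mm10 with Subjunc and counted them on Gencode M20 genes with featureCounts (Subread 1.6.4), and deposited the counts without normalization. The strand setting was not given in the sources used here. Groups and replicate numbers came from the sample labels. Symbols were matched for 54723 of 54752 identifiers. The 9518 genes that reached 10 CPM in more than 3 libraries were compared in R 4.3.3 by edgeR 4.0.16, with TMM scaling and its quasi-likelihood test. All 6 libraries entered the same model, which left 3 residual degrees of freedom, and p-values were adjusted by Benjamini-Hochberg. A call required an adjusted p-value under 0.01 with more than a 2-fold change. Log2 CPM used a prior count of 1, and the standard error was the log2 fold change divided by the square root of F. Alternatives were DESeq2 1.42.0, its size factors, other filters (filterByExpr, at least 10 counts in total), a replicate block, the 2 groups alone, other thresholds, length offsets (lowess of span 0.3) and leaving out each library. A crossed block and length offsets with the block were added after the data were seen. On simulated counts for BI6727 against DMSO, 199 of 200 genes changed 3-fold among 9518 were called, with 0 false calls. Of 200 changed 1.5-fold, which is under the 2-fold minimum, 2 were called. The counts were drawn with the same spread in every group and no trend with gene length, unlike these data. They therefore do not give the sensitivity for BI6727 against DMSO here. Replicates differed beyond sampling noise (chi-square per degree of freedom 4.16 to 38.4). The genes and lists were chosen with earlier results of these data known, so no list was tested. Named genes were the 6 members, every gene of the BET, P-TEFb, 7SK and BET-inhibitor lists, the genes called and the extremes of BI6727 against DMSO in the other lists, Plk1 and Acta2. Genes of like pattern were the 3 with the highest r. Eaf1, Aff1, Aff4, Mllt1, Mycl, Mycn, Mxd1, Cdkn1a and Cdkn1b were added after their values were seen. An item that this rule selects is not reported here, and the lists were counted without it.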

Additional observations from a re-analysis of the deposited data

How the results depend on the processing

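The count of members called was 0 in every comparison and under every alternative except an unadjusted p below 0.05, which gave 2, 2 and 1 members in DMSO against vehicle, BI6727 against DMSO and BI6727 against vehicle. Over the lists, 2 genes were called in DMSO against vehicle, against 4 with at least 10 counts in total, 7 without a fold minimum, 30 at an unadjusted p below 0.05 and 0 to 4 with a library left out (0 without vehicle replicate 1 or 2, 4 without DMSO replicate 1). In BI6727 against DMSO 0 were called, against 7 at an unadjusted p below 0.05 and 0 to 1 with a library left out. In BI6727 against vehicle 2 were called, against 4 with filterByExpr or at least 10 counts in total, 7 without a fold minimum, 28 at an unadjusted p below 0.05 and 1 to 2 with a library left out.

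Signs turned only in values that had not passed. With each library left out in turn, DMSO against vehicle ranged from -0.50 to 0.012 for Brd3 and from -0.25 to 0.13 for Ccnt1, and BI6727 against DMSO from -0.19 to 0.32 for Brd3, from -0.19 to 0.0036 for Cdk9 and from -0.11 to 0.073 for Myc. The opposite sign came without DMSO replicate 2 in these, and for Myc also without BI6727 replicate 1 (0.055 without DMSO replicate 2). BI6727 against vehicle ranged from -0.24 to 0.043 for Hexim1, the last without vehicle replicate 1. Length offsets gave 0.10 for Ccnt1 in DMSO against vehicle and 0.017 for Myc in BI6727 against DMSO, and with the replicate block 0.10 and 0.018. The cause was not tested. Over 15 alternatives, BI6727 against DMSO ranged from 0.28 to 0.44 for Hexim1 and from 0.19 to 0.33 for Brd2.

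Same-numbered replicates were not shown to be paired (r = -0.11, -0.26 and 0.047 across genes). The replicate block gave 0 members and 2, 0 and 2 list genes in the 3 comparisons, and the crossed block gave the same counts of calls. Each member had at least 781 counts in every library. A 1.28-fold difference cannot be called under a 2-fold minimum. Genes simulated at 1.5-fold lay under the same minimum, so they were mostly not called whatever the sensitivity of the test.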
